A study of Mus musculus with 4 samples.

Results

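Chemokine ligands and chemokine receptors were examined in lung tumors of KP mice. Members were chosen by gene symbol alone, as every gene whose symbol is a family stem (Ccl, Cxcl, Cx3cl, Xcl, Ccr, Cxcr, Cx3cr, Xcr or Ackr) followed by a number and at most 1 letter. Of 39017 genes in the count table, 64 entries with 60 different symbols matched, 42 for ligands and 22 for receptors. The repeated symbols were Ccl21c, Ccl25 and Ackr4, which stand under several gene identifiers.

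Chemokines are small secreted proteins that guide moving cells along gradients, and they are grouped as CC, CXC, C and CX3C by the spacing of their first cysteines. Their receptors span the membrane and signal through inhibitory G proteins, whereas the atypical receptors (Ackr) bind chemokines without that signal and mostly remove or store them. In the lung, epithelial cells and alveolar macrophages are known sources of ligands, and most of the receptors are known from leukocytes.

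RNA was sequenced from 4 macrodissected lung tumors that form 1 group named Control, with 1 library per tumor. All came from male KP mice on a C57BL/6 background, a lung adenocarcinoma model in which Cre recombinase starts the tumors and deletes both floxed copies of p53 (p53Fl/Fl). Each mouse received 1500 viral units of lenti.PGK-Cre through the trachea, and RNA was extracted from dissociated cells of tumors collected 22 weeks and 5 days after that. The PGK promoter is active in most cell types, so Cre was not restricted to 1 kind of lung cell. The labels give the genotype as heterozygous fl/wt with no gene named, the columns of a deposited table mark the same tumors as WT, and by the study's methods controls could carry either 0 or 1 floxed copy of Slc2a1. Ages were not given. The labels do not say whether the 4 tumors came from 4 mice, so p-values measure the spread between these samples, part of which may be technical.

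Total counts were between 8151613 and 8799007 per tumor. Levels are given as CPM, the count scaled to 1000000 counts of effective library size, and 3 counts corresponded to between 0.330 and 0.370 CPM. Marker genes of alveolar type 2 cells were abundant in all 4 tumors, and the leukocyte gene Ptprc was present in all 4 tumors at 26.2, 35.8, 83.4 and 38.5 CPM. The labels mention no sorting of the dissociated cells. The study's methods describe RNA from bulk tumors of a lentiviral cohort, for which no removal of immune cells is described. They also describe bead removal of CD45+ immune cells for other cohorts, among them the cohort named PGK-Cre. The labels do not name the cohort of these tumors, and the absence of sorting in them matches the bulk preparation. Whether immune cells were depleted here is therefore not known, and levels of genes known from leukocytes are to be read with that limit. For every gene below, fewer cells of a type and less RNA per cell cannot be told apart.

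Of the 64 entries, 18 had a mean of at least 10 CPM, 16 had a mean from 1 to under 10 CPM, 17 had some counts but a mean under 1 CPM, and 13 had 0 counts in all 4 tumors. The 34 members with a mean of at least 1 CPM (24 ligands and 10 receptors) were tested for variation between tumors. A gene was called variable where its 4 counts spread more than counting noise allows (chi-square test against Poisson expectations, Benjamini-Hochberg adjusted p under 0.05 over 14225 genes). Of the 34 tested members, 24 (70.6%) were variable, against 76.7% of all tested genes. Among members with a mean of at least 10 CPM, 18 of 18 were variable, against 84.8% of all genes at that level. The share of variable genes in the family was thus near that of all genes, and the size of the spread is given for each member.

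Cxcl15, also called lungkine, is a CXC ligand known from the lung and airway epithelium, and it dominated the family. Its level was 2565 CPM in tumor 1, 6464 in tumor 2, 10649 in tumor 3 and 6309 in tumor 4 (mean 6497 ± 3303, SD, n = 4). It ranked 5 among the 14225 tested genes by mean CPM. Tumor 3 was highest and tumor 1 lowest, a 4.15-fold range, while tumors 2 and 4 were close to each other. Cxcl15 held 86.0% of all ligand counts in tumor 1 (95% Wilson interval 85.6 to 86.5%), 93.2% in tumor 2, 92.9% in tumor 3 and 92.0% in tumor 4 (mean 91.0 ± 3.36, SD, n = 4). Reads carried no molecular identifiers, so this interval covers counting error only. Alveolar type 2 markers, which summed to 29533, 49246, 44420 and 52614 CPM, were lowest in tumor 1 for 4 of 6 genes. The other 2 were lowest in tumor 3, where Cxcl15 was highest. Club cell markers were lowest in tumor 1 for 3 of 3 genes, whereas epithelial markers were highest there for 3 of 4 genes. Of all 14225 tested genes, 4321 were lowest in tumor 1, 4625 were lowest in tumor 3 and 31.4% were highest in tumor 1. The part of these markers in the Cxcl15 values was not tested. The range of Cxcl15 narrowed to 1.69-fold without tumor 1 and to 2.52-fold without tumor 3.

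Summed over ligands, the level was 2981, 6936, 11468 and 6857 CPM in tumors 1 to 4 (mean 7060 ± 3470, SD, n = 4). Without Cxcl15 the sums were 415.9, 471.3, 818.5 and 548.1 CPM (mean 563 ± 178, SD, n = 4). Receptors summed to 94.4, 113.6, 160.8 and 111.0 CPM (mean 119.9 ± 28.5, SD, n = 4). Tumor 3 was highest and tumor 1 lowest in each of these sums.

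**Figure D1:**
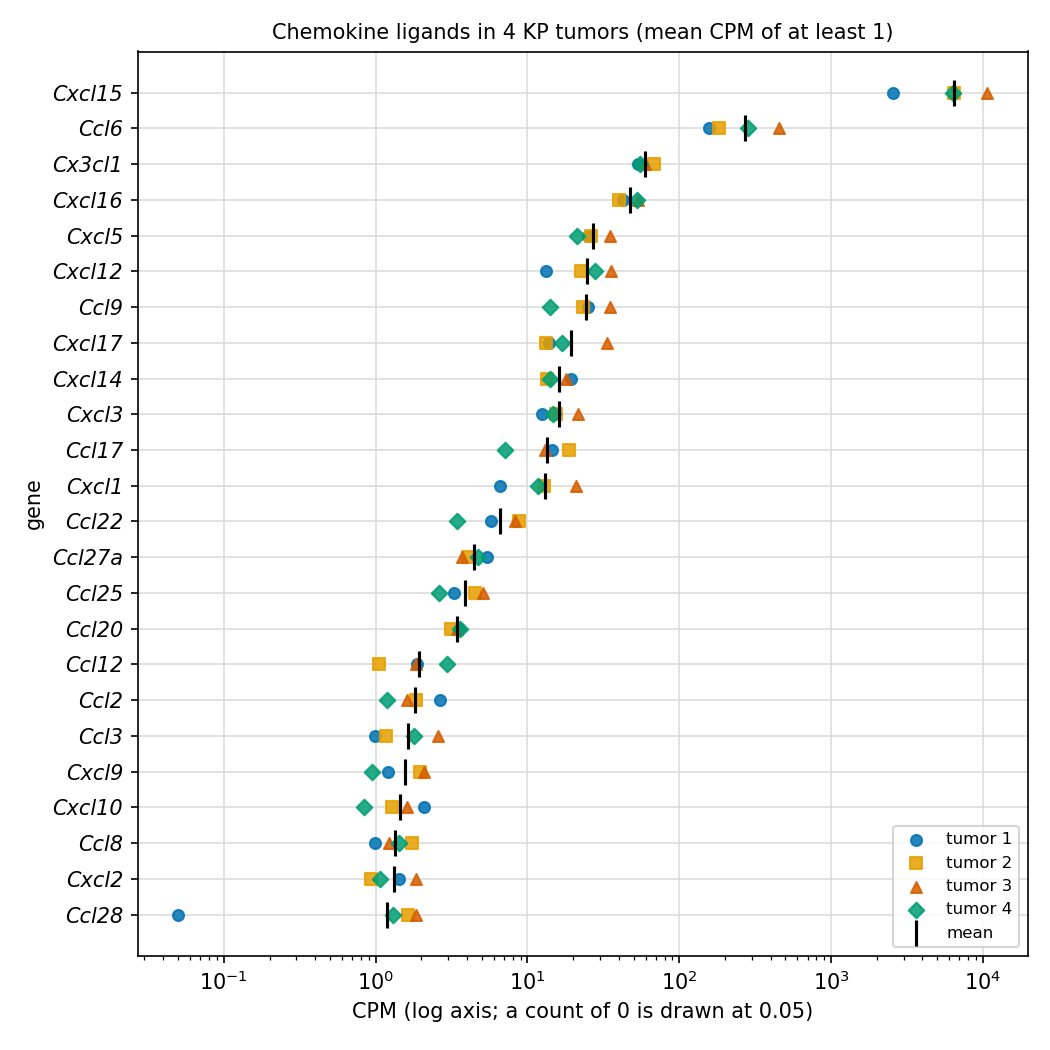
CPM (log axis) of the 24 chemokine ligands with a mean of at least 1 CPM, one line per gene, with 1 symbol per tumor and a vertical bar for the mean of the 4 tumors. Cxcl15, at 2565 to 10649 CPM, and Ccl6, at 158 to 454 CPM, lie above all other ligands, and the count of 0 for Ccl28 in tumor 1 is drawn at the left edge.

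Levels of different genes were compared per kilobase of the longest annotated transcript. Cxcl15 came first with 3054 ± 1553 CPM per kilobase (SD, n = 4), followed by Ccl6 with 187 ± 93.6, Ccl17 with 26.1 ± 9.39 and Cxcl17 with 25.3 ± 12.4. Then came Cx3cl1 with 17.8, Cxcl16 with 17.5, Cxcl5 with 14.4, Cxcl14 with 8.86, the receptor Cxcr4 with 8.70, Ccl9 with 8.12, Cxcl1 with 6.97 and the receptor Ccr1 with 6.23 CPM per kilobase. Of the 11 steps between neighbors in this order, 3 were larger than their SD over tumors and had the same sign in 4 of 4 tumors. These were Cxcl15 over Ccl6 (log2 difference per kilobase 3.99 ± 0.46, SD), Ccl6 over Ccl17 (2.79 ± 1.08) and Cxcl5 over Cxcl14 (0.69 ± 0.29). Cxcl16 was also above Cxcl5 in 4 of 4 tumors, by 0.29 ± 0.33, which is less than its SD. The smallest two-sided p of the exact permutation test, made by flipping signs over 4 tumors, is 0.125 (adjusted 0.344 over the 11 steps), so no step could pass 0.05. The other 7 neighbor pairs did not keep their order in all tumors.

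Cxcl15 lies in a cluster with the CXC ligands Cxcl5, Cxcl3, Cxcl1 and Cxcl2 on chromosome 5 from 90759360 to 90905938 (GRCm38). The promoters of 4 of these genes are shown because the 5 genes were all highest in tumor 3 as 30.2% of all tested genes were, while their mean levels ran from 1.32 to 6497 CPM. Each sequence is from RefSeq (GRCm38.p6, plus strand) and runs from 200 bases before the annotated start to 20 bases after it. Capitals mark GGGAATTTCCC, the longest run of letters that the windows of Cxcl1, Cxcl2 and Cxcl3 share, and TATAAA, the letters of a TATA box, both searched on both strands and not overlapping each other. The shared run was picked from these sequences, has the form of a binding motif of NF-kB, a factor known to induce inflammatory genes, and is 11 letters long, against 8 for the next longest run they share. The windows are Cxcl3 at chr5:90785901-90786120, Cxcl15 at chr5:90794334-90794553, Cxcl1 at chr5:90891045-90891264 and Cxcl2 at chr5:90903699-90903918.
Cxcl3: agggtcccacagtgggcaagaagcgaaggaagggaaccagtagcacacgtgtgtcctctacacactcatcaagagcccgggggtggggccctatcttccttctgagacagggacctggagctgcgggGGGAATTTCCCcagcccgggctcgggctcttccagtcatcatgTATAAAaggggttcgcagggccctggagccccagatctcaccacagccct
Cxcl15: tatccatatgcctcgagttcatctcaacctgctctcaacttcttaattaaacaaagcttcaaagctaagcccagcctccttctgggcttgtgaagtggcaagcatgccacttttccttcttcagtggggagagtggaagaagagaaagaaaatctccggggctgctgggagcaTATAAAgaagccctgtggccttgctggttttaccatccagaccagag
Cxcl1: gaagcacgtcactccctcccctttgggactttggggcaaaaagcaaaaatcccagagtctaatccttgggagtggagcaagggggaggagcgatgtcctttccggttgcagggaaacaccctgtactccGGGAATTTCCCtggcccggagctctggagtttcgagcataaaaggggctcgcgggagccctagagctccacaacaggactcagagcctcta
Cxcl2: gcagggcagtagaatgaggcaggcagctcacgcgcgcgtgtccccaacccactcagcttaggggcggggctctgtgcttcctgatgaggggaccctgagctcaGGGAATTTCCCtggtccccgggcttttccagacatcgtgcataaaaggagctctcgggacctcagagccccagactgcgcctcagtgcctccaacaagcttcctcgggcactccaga

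GGGAATTTCCC began 73 bases before the start of Cxcl3, 71 before that of Cxcl1 and 97 before that of Cxcl2, and these letters were not in the window of Cxcl15. TATAAA began 30 bases before the start of Cxcl3 and 27 before that of Cxcl15. Among 27025 genes with a promoter of the same length, 11 (0.0407%) held GGGAATTTCCC and 12.2% held TATAAA. Of the 44 member symbols with a promoter in the table, 3 (6.82%) held GGGAATTTCCC and 14 (31.8%) held TATAAA. The 3 were Cxcl1, Cxcl2 and Cxcl3, from which the run was picked, so this share was fixed in advance and is no result about the family. No other member symbol with a promoter held the run. A match of letters is a description of the window, and binding was not measured here.

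Cxcl1, Cxcl2, Cxcl3 and Cxcl5 attract neutrophils and share the receptor Cxcr2. All 4 were tested, 3 were variable, and all 4 were highest in tumor 3, against 76.7% and 30.2% of all tested genes. Cxcl5, known from alveolar type 2 cells, was at 25.1, 26.1, 34.9 and 21.2 CPM in tumors 1 to 4 (mean 26.8 ± 5.80, SD, n = 4). Tumor 4 was its lowest tumor, and the range of 1.65-fold was beyond counting noise (adjusted p 1.85e-06). Cxcl3 was at 12.5, 15.3, 21.6 and 14.6 CPM (mean 16.03 ± 3.90, SD, n = 4), a 1.72-fold range (adjusted p 4.94e-05). The calls of Cxcl5 and Cxcl3 were lost without tumor 3, where the ranges were 1.23-fold and 1.22-fold. Cxcl1 was at 6.60, 12.8, 21.0 and 11.8 CPM (mean 13.03 ± 5.95, SD, n = 4), the widest range of these ligands at 3.18-fold (adjusted p 1.63e-14). Its tumor 1 value was the lowest, and the range was 1.78-fold without tumor 1 and 1.94-fold without tumor 3. Cxcl2 was at 1.43, 0.929, 1.85 and 1.07 CPM, a spread within counting noise (adjusted p 0.392). Cxcl2 and Cxcl3 share a near-identical stretch of 116 nt, and Cxcl5 shares 1 of 100 nt with 4 other genes, so reads there could be split or lost.

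Of the other CXC ligands with largely constitutive expression, Cxcl12, Cxcl14, Cxcl16 and Cxcl17 were all variable, and 3 of these 4 were highest in tumor 3. Of all genes at a mean of at least 10 CPM 84.8% were variable, and of all tested genes 30.2% were highest in tumor 3. Cxcl12, the stromal ligand of Cxcr4 and Ackr3, was at 13.3, 22.5, 35.5 and 27.7 CPM (mean 24.8 ± 9.33, SD, n = 4). It was lowest in tumor 1 and highest in tumor 3, with a 2.67-fold range (adjusted p 4.49e-19) that was 1.58-fold without tumor 1. Cxcl17, a mucosal ligand, was at 13.9, 13.2, 33.2 and 16.8 CPM (mean 19.3 ± 9.41, SD, n = 4). Tumor 3 was 2.51-fold above the lowest tumor (adjusted p 3.98e-24), and without tumor 3 the range was 1.27-fold and the call was lost. Cxcl16, a transmembrane ligand of Cxcr6 that can be shed, was at 42.5, 40.3, 53.4 and 52.3 CPM (mean 47.1 ± 6.71, SD, n = 4). Its range was only 1.33-fold, with tumors 3 and 4 above tumors 1 and 2 (adjusted p 4.08e-05), and its exons overlap those of Zmynd15, so its count is uncertain. Cxcl14 was at 19.3, 13.4, 18.0 and 14.2 CPM (mean 16.2 ± 2.88, SD, n = 4). It was highest in tumor 1, with a 1.44-fold range (adjusted p 0.00598), and without tumor 1 the call was lost at a range of 1.35-fold. Cxcl13, the B cell ligand, had 3 to 7 counts per tumor.

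Cx3cl1 encodes fractalkine, the membrane-bound ligand of Cx3cr1. It was at 53.6, 68.1, 59.7 and 54.9 CPM (mean 59.1 ± 6.54, SD, n = 4), the third highest mean of the family on the CPM scale and with a range of only 1.27-fold. Tumor 2 was highest (adjusted p 4.97e-04), and the call was lost without tumor 2, at 1.11-fold. The only C ligand measured, Xcl1, had 1 to 3 counts per tumor.

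Among 13 inflammatory CC ligands, 6 were tested and 2 were variable, against 76.7% of all tested genes. The tested ones that were not variable had means of only 1.35 to 1.94 CPM, and levels were not matched in this comparison. The variable ones were Ccl6 and Ccl9, which lie in a cluster with Ccl3, Ccl4 and Ccl5 on chromosome 11 from 83525778 to 83664683 and are known from myeloid cells. Ccl6 was at 158, 182, 454 and 285 CPM (mean 269.6 ± 135, SD, n = 4). Tumor 3 was 2.88-fold above tumor 1, and the range was 1.81-fold without tumor 3. Ccl6 made up 37.9%, 38.6%, 55.5% and 51.9% of the ligand counts other than Cxcl15 (mean 46.0 ± 9.04, SD, n = 4). Ccl9 was at 25.2, 23.3, 35.05 and 14.03 CPM (mean 24.4 ± 8.61, SD, n = 4), a 2.50-fold range (adjusted p 1.21e-15). Its lowest tumor was tumor 4, where Ccl6 was second highest, so the neighbors differed in their order of tumors, and the range of Ccl9 was 1.501-fold without tumor 4. Ccl9 shares a near-identical stretch of 134 nt with 3 other genes.

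The monocyte attractants and several macrophage-derived ligands were low. Ccl2, the main ligand of Ccr2, was at 2.64, 1.86, 1.60 and 1.19 CPM (adjusted p 0.174). Ccl12, a further Ccr2 ligand, had a mean of 1.94 ± 0.792 CPM (SD, n = 4) and its adjusted p was 0.0527. Ccl3, a ligand of Ccr1 from activated macrophages, was at 0.990, 1.16, 2.59 and 1.78 CPM, from 9 to 21 counts (adjusted p 0.0531). Both missed the threshold narrowly, Ccl12 passed it without tumor 1 or without tumor 3, and Ccl3 passed it without tumor 4. Ccl8 had a mean of 1.35 CPM (adjusted p 0.605). The other 7 inflammatory CC ligands had means under 1 CPM, among them Ccl7 with 4 to 13 counts, Ccl5 with 4 to 10 counts and Ccl4 with 2 to 5 counts per tumor. Ccl1, Ccl11 and Ccl24 had at most 2 counts in any tumor, and Ccl26 had 0.

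The interferon-induced ligands of Cxcr3, which attract activated T cells, were near the limit of this depth. Cxcl9 was at 1.21, 1.97, 2.10 and 0.951 CPM from 8 to 17 counts (adjusted p 0.184). Cxcl10 was at 2.09, 1.28, 1.60 and 0.833 CPM from 7 to 19 counts (adjusted p 0.195), and its exons overlap those of Art3. Cxcl11 had 2 counts in tumor 2 and 0 in the other tumors. Differences between tumors in Cxcl9 and Cxcl10 were not detectable at this depth, and Cxcl11 was too low to be tested. The 3 ligands summed to 3.30, 3.48, 3.70 and 1.78 CPM, and tumor 4 stood apart from the others in this sum by Dixon's ratio, the gap to the nearest tumor over the whole range. That ratio takes no account of counting noise, and the sum rests on few counts.

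Among the CC ligands of dendritic cells, T cells and lymphoid tissue, 14 entries were present in the table, 6 were tested and 3 were variable, against 76.7% of all tested genes. Levels were not matched here either, and the tested ones that were not variable had means of 3.42 to 4.48 CPM. Ccl17 and Ccl22, both ligands of Ccr4, are known from dendritic cells. Ccl17 was at 14.5, 18.8, 13.1 and 7.14 CPM (mean 13.4 ± 4.83, SD, n = 4), and Ccl22 was at 5.72, 8.83, 8.27 and 3.45 CPM (mean 6.57 ± 2.48, SD, n = 4). Both were highest in tumor 2 and lowest in tumor 4, with ranges of 2.64-fold (adjusted p 3.87e-09) and 2.56-fold (adjusted p 5.47e-05). Without tumor 4 the ranges were 1.44-fold and 1.54-fold, and the call of Ccl22 was lost. These 2 genes and Cx3cl1 form a cluster on chromosome 8 from 94745590 to 94812036, in which all 3 genes were variable and highest in tumor 2. Of all tested genes, 20.4% were highest in tumor 2.

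Ccl28, a mucosal ligand of Ccr10, had 0, 14, 15 and 11 counts in tumors 1 to 4, that is 0, 1.63, 1.85 and 1.31 CPM. A count of 0 in tumor 1 allows up to 0.330 CPM. The measured value was 5.61-fold this limit in tumor 3 and 3.96-fold in tumor 4. These ratios leave out the counting error of tumors 3 and 4, so they are not lower bounds. It was variable (adjusted p 0.00228), and without tumor 1 the range was 1.41-fold and the call was lost. Without tumor 3 its mean fell under 1 CPM and it was not tested, with an SD of log2 CPM of 2.77 against 2.46 in all 4 tumors. Ccl20, the ligand of Ccr6, was the steadiest member, at 3.52, 3.14, 3.46 and 3.57 CPM (adjusted p 0.966). Ccl25 had a mean of 3.88 ± 1.12 CPM (SD, n = 4) and missed the threshold (adjusted p 0.0561), though it passed without tumor 2, and its exons overlap those of Elavl1. Ccl27a had a mean of 4.48 ± 0.749 CPM (adjusted p 0.389). Its exons overlap those of Il11ra1 and it has near-identical copies, so this value is uncertain. The lymphoid ligands Ccl19, Ccl21a, Ccl21b and Ccl21c and the copy Ccl27b had 0 counts in all tumors. Ccl19, Ccl21a, Ccl21b and Ccl27b share 402 to 870 nt with other annotated genes, so reads from them may have been discarded and their level cannot be read from these counts. No such stretch was found for Ccl21c. Its entries lie on contigs outside the chromosomes, however, at lengths of 402 and 867 nt, close to Ccl21b at 402 and Ccl21a at 870 nt. The 0 counts of Ccl21c are therefore uncertain as well.

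**Figure D2:**
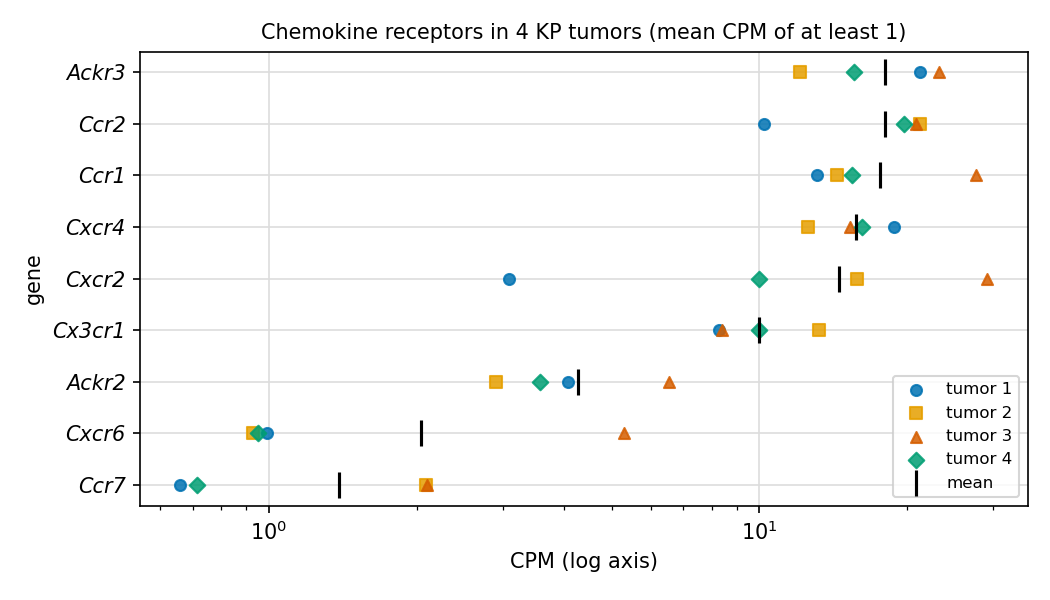
CPM (log axis) of 9 chemokine receptors with a mean of at least 1 CPM, one line per gene, with 1 symbol per tumor and a vertical bar for the mean of the 4 tumors. Cxcr2 spans 3.08 to 29.1 CPM, Cxcr6 stands at 5.31 CPM in tumor 3 against 0.929 to 0.990 CPM in the others, and Ccr2 is lowest in tumor 1 at 10.2 CPM.

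All 10 tested receptors were variable, against 76.7% of all tested genes, and 7 of the 10 were highest in tumor 3, against 30.2%. Cxcr2, the receptor of Cxcl1, Cxcl2, Cxcl3 and Cxcl5 and known best from neutrophils, was at 3.08, 15.8, 29.1 and 9.99 CPM (mean 14.5 ± 11.05, SD, n = 4). Its range of 9.45-fold was the widest of the members without a count of 0 (adjusted p 3.83e-46), and its SD of 1.36 on the log2 CPM scale ranked 439 among the 14225 tested genes. Tumor 1 was lowest and tumor 3 highest, and the range fell to 2.92-fold without tumor 1 and to 5.13-fold without tumor 3. Cxcr2 shares a stretch of up to 193 nt with transcripts of 15 other genes, so its count is uncertain. Neutrophil markers were likewise highest in tumor 3 but lowest in tumor 4, with summed levels of 32.5, 36.7, 56.1 and 23.9 CPM. Of 9 neutrophil markers, 6 were tested and 4 were highest in tumor 3, while Camp had 0 counts in all tumors and Ly6g had counts only in tumor 3, at 0.247 CPM. Their part in the Cxcr2 values was not tested. Cxcr1, the neighboring receptor, had 4, 5, 10 and 14 counts and a mean of 0.980 CPM.

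Cxcr6, the receptor of Cxcl16 on T cells and other lymphocytes, was at 0.990, 0.929, 5.31 and 0.951 CPM from 9, 8, 43 and 8 counts. Tumor 3 stood apart from the other tumors by Dixon's ratio, as 1 tumor did for 3 of the 34 tested members and for 5.86% of all tested genes. Cxcr6 had a 5.71-fold range (adjusted p 3.70e-12), and without tumor 3 the range was 1.07-fold and the mean fell under 1 CPM, so that it was not tested. Of the 4 tested T cell markers, 3 were highest in tumor 3, against 30.2% of all tested genes. T cell markers summed to 6.71, 7.67, 23.9 and 6.78 CPM, also with tumor 3 apart. Of these sums Cd2 alone made up 0.990, 0.813, 12.6 and 2.14 CPM. The remaining tested marker, Lck, was lowest in tumor 3, at 3.52, 2.67, 2.34 and 2.74 CPM, and was within counting noise. The part of the T cell markers in the Cxcr6 value was not tested. Cxcr4, the receptor of Cxcl12, was at 18.8, 12.5, 15.3 and 16.2 CPM (mean 15.7 ± 2.58, SD, n = 4). Tumor 1 was highest and tumor 2 lowest (adjusted p 0.0150), whereas tumor 1 was lowest for Cxcl12, and its call was lost without tumor 1 (1.29-fold) and without tumor 2 (1.23-fold). Cx3cr1, found on monocytes and macrophages, was at 8.25, 13.2, 8.39 and 9.99 CPM (mean 9.97 ± 2.32, SD, n = 4). It was highest in tumor 2 like its ligand Cx3cl1 (adjusted p 0.00454), and this call was lost without tumor 2, at 1.21-fold. Its exons overlap those of Gm33858.

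Among the CC receptors, Ccr1, a myeloid receptor of Ccl6 and Ccl9, was at 13.1, 14.4, 27.6 and 15.5 CPM (mean 17.7 ± 6.73, SD, n = 4). Tumor 3 was 2.11-fold above tumor 1 (adjusted p 2.34e-13), and without tumor 3 the range was 1.18-fold and the call was lost. Ccr2, the receptor of inflammatory monocytes, was at 10.2, 21.3, 20.9 and 19.7 CPM (mean 18.0 ± 5.23, SD, n = 4). Tumor 1 stood apart as the lowest (adjusted p 1.88e-08), and the other 3 tumors lay within 1.08-fold of each other, where the call was lost. Monocyte markers had no common order of tumors. Their sum was 1493, 1293, 713 and 633 CPM, of which Fn1 alone made up 1314, 958, 593 and 518 CPM, and of the 6 markers 1 was highest in tumor 1, 1 in tumor 2, 3 in tumor 3 and 1 in tumor 4. Their part in the Ccr2 values was not tested. Ccr7, which guides dendritic cells and naive T cells to lymph nodes, had 6, 18, 17 and 6 counts, or 0.660, 2.09, 2.10 and 0.714 CPM (adjusted p 0.00919). Tumors 2 and 3 were high and tumors 1 and 4 low, and without tumor 1 the call was lost although the range was still 2.94-fold.

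The atypical receptors Ackr3 and Ackr2 were both lowest in tumor 2 and highest in tumor 3. Ackr3, a scavenger of Cxcl12, was at 21.2, 12.1, 23.2 and 15.6 CPM (mean 18.0 ± 5.11, SD, n = 4), with a 1.92-fold range (adjusted p 1.21e-07). Ackr2, which takes up inflammatory CC ligands, was at 4.07, 2.90, 6.54 and 3.57 CPM (mean 4.27 ± 1.59, SD, n = 4), with a 2.25-fold range (adjusted p 0.00328) that was 1.402-fold without tumor 3, where the call was lost. Ackr4 had at most 3 counts in any tumor.

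Per kilobase, the receptor means described here ran, from high to low, from Cxcr4 at 8.70, Ccr1 at 6.23, Ackr3 at 5.88, Cxcr2 at 4.76, Ccr2 at 3.15, Cx3cr1 at 2.22, Ackr2 at 1.42, Cxcr6 at 1.07 and Ccr7 at 0.703 CPM per kilobase. This order is given as a description.

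Receptors of several lymphocyte types were at the limit of the depth. Ccr3, Ccr8 and Ccr10 had 0 counts in all tumors, which allows up to 0.370 CPM in the shallowest library. Cxcr3 had 2 counts in tumor 2 and 0 elsewhere, and Ccr4, Ccr6, Ccr9 and Cxcr5 had at most 5 counts in any tumor. Xcr1, a marker of cross-presenting dendritic cells, had 0, 1, 12 and 4 counts, a mean of 0.518 CPM that was under the level for testing.

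Known ligands were then set beside their receptors. For 18 receptors with known ligands among the members, receptor and at least 1 ligand both reached a mean of 1 CPM in 8 cases. These included Ccr1, Ccr2, Cxcr2, Cxcr4, Cxcr6, Cx3cr1 and Ackr3. In 6 cases a ligand reached that level and the receptor did not, namely Ccr4 with Ccl17 and Ccl22, Ccr6 with Ccl20, Ccr8 with Ccl8, Ccr9 with Ccl25, Ccr10 with Ccl27a and Ccl28, and Cxcr3 with Cxcl9 and Cxcl10. For Ccr7 the receptor reached it and its ligands Ccl19 and Ccl21a were at 0 counts, which are uncertain as stated above. Neither side reached it for Ccr3, Cxcr5 and Xcr1. Receptors and ligands did not always share their highest tumor. Tumor 3 was highest for Cxcr2 and its 4 ligands and for Ccr1 with Ccl3, Ccl6 and Ccl9. It was also highest for Cxcr6 with Cxcl16 and for Ackr3 with Cxcl12, and tumor 2 for Cx3cr1 with Cx3cl1. Of these ligands, Cxcl2 and Ccl3 were not variable. Ccl5, a further ligand of Ccr1, and Cxcl11, a further ligand of Ackr3, were highest in tumor 2, at means under 1 CPM. Cxcr4 was highest in tumor 1 but Cxcl12 in tumor 3. Ccr2 was highest in tumor 2, and its ligands Ccl2 and Ccl12 in tumors 1 and 4. However, Ccr2 was nearly equal in tumors 2 to 4, at 21.3, 20.9 and 19.7 CPM. Neither Ccl2 nor Ccl12 was variable by the chi-square test (adjusted p 0.174 and 0.0527), so the highest tumors of these 3 genes are uncertain. Tumor 3 was the highest for 61.8% of tested members, and Cxcl16 was nearly as high in tumor 4, so these pairs are given as a description.

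The median SD of log2 CPM over the 34 tested members was 0.50, against 0.29 over all 14225 tested genes. Of the tested members, 15 (44.1%) were variable with a range of at least 2-fold, against 25.3% of all tested genes. The widest spreads were those of Ccl28 with an SD of 2.46, Cxcr2 with 1.36, Cxcr6 with 1.20, Ccr7 with 0.89 and Cxcl15 with 0.85. Over all tested genes the SD was wider at low levels, as the plot of SD against level shows, and levels were not matched in these comparisons.

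**Figure D3:**
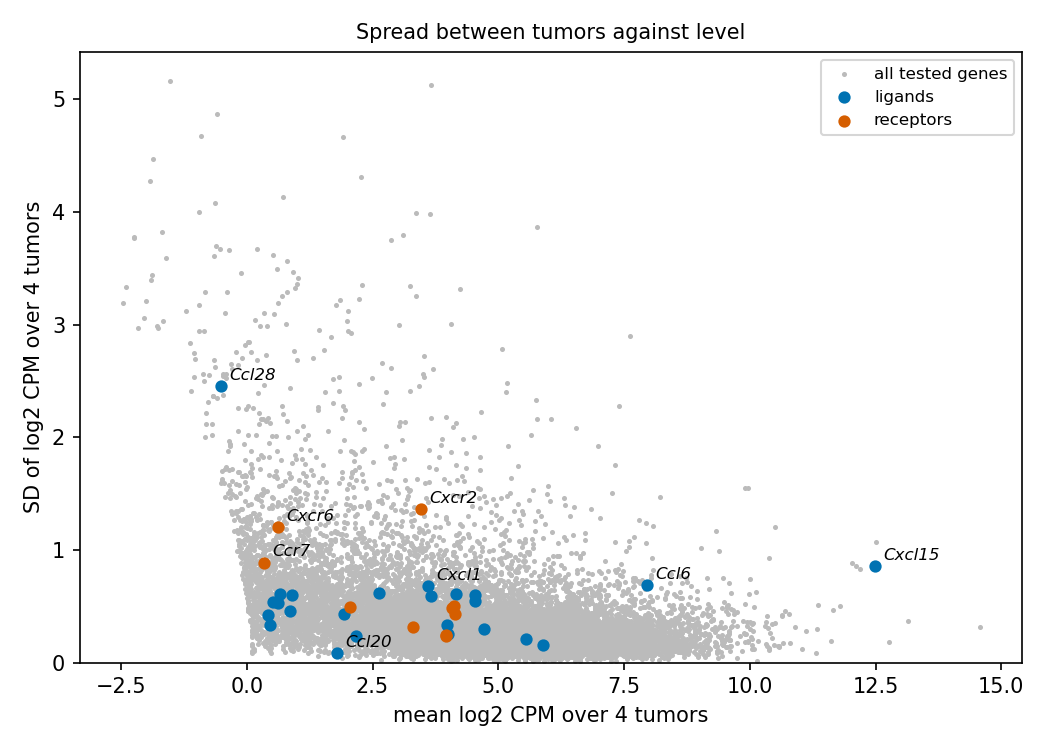
SD of log2 CPM over the 4 tumors against the mean log2 CPM for all 14225 tested genes (gray), with the 24 ligands in blue and the 10 receptors in orange. Cxcl15 lies at the far right with an SD of 0.85, Ccl28, Cxcr6 and Cxcr2 have the highest SDs of the family, and Ccl20 the lowest.

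Tumor 3 was the highest tumor for 21 of the 34 tested members (61.8%), against 30.2% of all tested genes. The highest tumor was tumor 1 for 5 members, tumor 2 for 6 and tumor 4 for 2, against 31.4%, 20.4% and 18.0% of all tested genes. Variable members highest in tumor 3 numbered 17 of 34, against 23.3% of all tested genes. Tumor 3 was singled out after its values were seen, and the members share the same 4 libraries, so these shares carry no test. Among ligands 14 of 24 and among receptors 7 of 10 were highest in tumor 3. When 1 of the other tumors was left out, tumor 3 was highest for 21 to 24 members and for 36.0 to 37.1% of all tested genes.

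Several marker lists were also highest in tumor 3. Beside the counts that follow, 30.2% of all tested genes were highest in tumor 3 and 31.4% in tumor 1. Pan-leukocyte markers were highest there for 5 of 6 genes, although their sum (526, 832, 812 and 724 CPM) was highest in tumor 2, where Lcp1 alone was at 696 CPM. Alveolar macrophage markers summed to 248, 206, 932 and 444 CPM, with 5 of 7 genes highest in tumor 3. Chi3l3 alone was at 121, 159, 775 and 355 CPM. The other 2 genes, Fabp4 (77.2, 6.97, 5.68 and 11.1 CPM) and Krt79 (14.1, 2.67, 13.3 and 10.2 CPM), were highest in tumor 1, and Fabp4 was lowest in tumor 3. Macrophage markers as a whole differed little, at 201, 219, 224 and 205 CPM, with 4 of 8 highest in tumor 3. Dendritic cell markers summed to between 15.0 and 20.03 CPM, B cell markers to between 6.27 and 19.0 CPM and natural killer cell markers to between 0.330 and 2.34 CPM. The eosinophil and mast cell markers Prg2, Epx and Ms4a2 were at 0 counts, and that list summed to at most 0.123 CPM in any tumor. Platelet markers summed to 4.51, 3.02, 1.73 and 2.02 CPM. Of these, Itga2b was tested, variable and highest in tumor 1, whereas Gp9 and Gp1ba were at 0 counts. Club cell markers were at 36.4, 594, 878 and 521 CPM, lowest in tumor 1 as Cxcl15 was, and epithelial markers were at 3972, 2587, 2488 and 2632 CPM, highest in tumor 1. Endothelial markers (213 to 293 CPM), fibroblast markers (301 to 531 CPM) and lymphatic markers (109 to 252 CPM) were present in all tumors. Red blood cell markers were highest in tumor 3 for 5 of 5 genes (39.8, 32.3, 109.8 and 45.1 CPM), plasma cell markers summed to between 194 and 301 CPM, and dissociation response genes were highest in tumor 1 for 6 of 8 genes (176.5, 152, 129 and 142 CPM). The part of these cell types in the chemokine values was not tested.

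**Figure D4:**
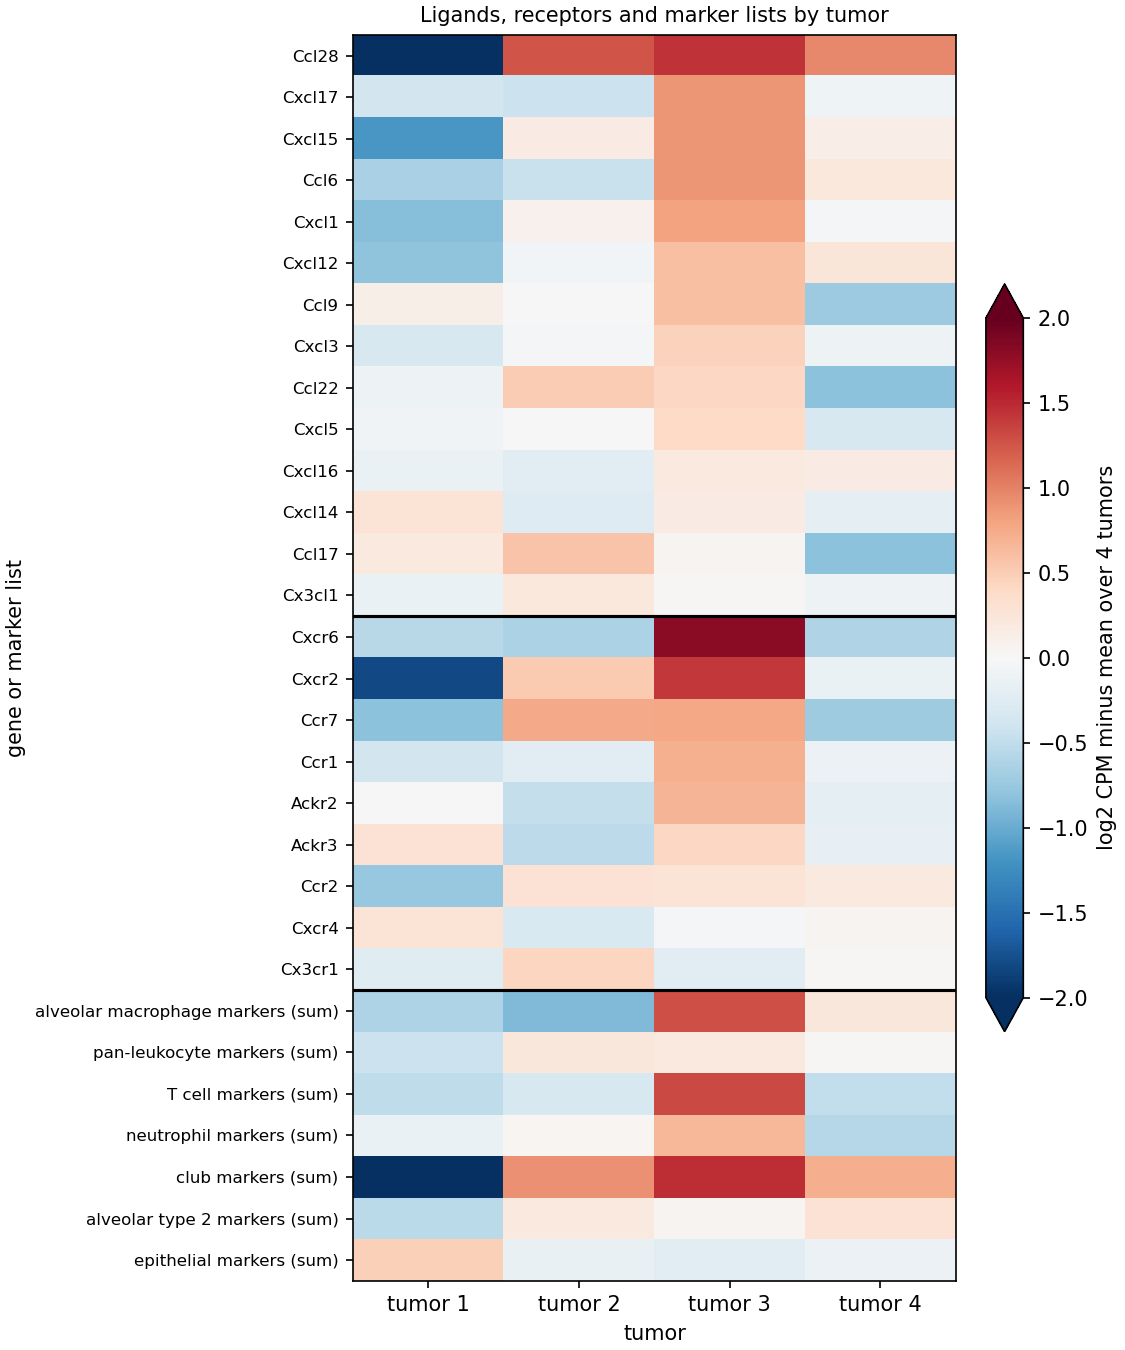
Log2 CPM minus the mean over the 4 tumors for the 14 variable ligands (top), 9 variable receptors (middle) and the summed CPM of 7 marker lists (bottom), with red for higher and blue for lower values and colors ending at 2 on either side. Most ligand and receptor lines are red in tumor 3, as are the alveolar macrophage and T cell markers, and Cxcr2, Cxcl15 and the club cell markers are blue in tumor 1.

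Genes that act with chemokines were taken from lists. Of 19 genes of receptor signaling and desensitization, 19 were variable and 13 were highest in tumor 3, against 76.7% and 30.2% of all tested genes, and the same shares apply to the lists that follow. The widest spreads were those of Pik3cg, the kinase subunit downstream of G protein beta-gamma, at 5.50, 13.4, 31.5 and 5.59 CPM (adjusted p 1.17e-57), of the G protein brake Rgs1 at 0.660, 1.16, 3.09 and 1.903 CPM (adjusted p 0.00123) and of the phospholipase Plcb2 at 6.05, 7.20, 21.7 and 7.97 CPM (adjusted p 1.00e-26). All 3 were highest in tumor 3. Of the proteases and scaffolds that trim or hold chemokines, 10 of 10 tested genes were variable and 3 were highest in tumor 3. Mmp8, the neutrophil collagenase, was at 0.770, 1.51, 10.6 and 2.02 CPM, whereas Mmp9 (5.61, 1.16, 1.97 and 0.595 CPM) and Mmp14 (233, 56.3, 40.6 and 121 CPM) were highest in tumor 1. Of 14 transcription factors known to induce chemokines, 11 were variable and 3 of these were highest in tumor 3, with the widest spreads in Irf7, Cebpb and Irf5 (SD of log2 CPM 0.43, 0.43 and 0.40).

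Of the chemokine-related genes that the symbol rule leaves out, 6 were tested and 4 were variable, against 76.7% of all tested genes. The platelet chemokine Pf4 was at 15.8, 199, 30.5 and 21.8 CPM, with tumor 2 far above the others, and the cytokine Mif was at 57.0, 30.8, 22.2 and 21.9 CPM, highest in tumor 1 (adjusted p 1.59e-45). Ccrl2 was at 1.54, 1.16, 2.71 and 1.78 CPM and was within counting noise (adjusted p 0.128). The atypical receptor Ackr1 stands in the table under its older symbol Darc, with 0, 1, 8 and 2 counts.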

How the data were processed

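RNA was sequenced from 4 tumors of 1 group on a NextSeq as single-end reads, after a stranded TruSeq mRNA kit starting from 500 ng of total RNA. The authors trimmed reads with Cutadapt, for which the processing notes and the methods name different versions, aligned them with HISAT2 to mm10 and deposited raw counts per gene. The submitters' processing notes also name bcl2fastq 2.17, featureCounts 1.4.4 and edgeR. The strand setting and annotation of the counting are not given in the sources used here. The authors also deposited log2 values, TMM-normalized per their methods, which served as an alternative only. The combined and single-tumor count tables agreed in 156068 of 156068 values.

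Effective library sizes were total counts times TMM factors (edgeR 4.0.16, R 4.3.3). For log2 CPM, 0.5 was added to counts and 1 to effective sizes. Genes with a mean of at least 1 CPM were tested by a chi-square test with 3 degrees of freedom (SciPy 1.17.1), adjusted by Benjamini-Hochberg over all tested genes. A tumor was called apart by Dixon's ratio of the gap to the nearest tumor over the range. With 1 group there was no contrast, so the quasi-likelihood test of edgeR was not used. Scripts were tested on simulated data.

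Positions and transcript lengths are from GENCODE M21 (GRCm38), in which 62 of 64 entries were found. Overlapping exons or stretches of at least 80 nt at 97% identity with another gene (BLAST 2.17.0) were found for 10 of the 34 tested members. Promoters were matched by symbol for 44 of 60 member symbols. Per-tumor values are given for members with a mean of at least 10 CPM, for the 10 with the largest SD of log2 CPM and for each tested receptor except 1 that is not reported here, and list genes are named for the 3 largest SDs. Other genes singled out in the text were chosen after their values were seen. Members and lists were chosen with earlier results of these data known. Alternatives were DESeq2 1.42.0 size factors, total counts, other filters, a G test, 2 added to each count, the deposited log2 values and leaving out each tumor.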

Additional observations from a re-analysis of the deposited data

Results flagged for a closer look

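Each tested member and each gene list was searched for 1 tumor lying far from the other 3, by Dixon's ratio at its 95% limit for 4 samples. Chance alone flags about 1 in 20 such groups, and 5.86% of all 14225 tested genes were found. Among the 34 tested members 3 were found. Cxcr6 was high in tumor 3, at a log2 CPM of 2.42. Ccr2 was low in tumor 1, at a log2 CPM of 3.36. Ccl28 was low in tumor 1, at a log2 CPM of -4.18, which stands for a count of 0.

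Among the 32 lists examined, 4 were found. The summed level of the interferon-induced CXC ligands was low in tumor 4, at 1.784 CPM. Each of these ligands alone was within counting noise or too low to be tested. T cell markers were high in tumor 3, at a sum of 23.94 CPM, of which Cd2 alone made up 12.6 CPM. Epithelial markers were high in tumor 1, at a sum of 3972.0 CPM. Club cell markers were low in tumor 1, at a sum of 36.42 CPM.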

How the results depend on the processing

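No paired analysis was possible because there was only 1 group. The number of variable members was 24, with 24 by DESeq2 size factors, 23 by total counts, 24 by the G test, 25 with no filter, 20 at a mean of at least 5 CPM and 18 to 24 when 1 tumor was left out. Of the 24 calls, 9 held whichever tumor was left out and 15 were lost without at least 1 tumor, 7 of them without tumor 3, 6 without tumor 1, 3 without tumor 2 and 1 without tumor 4, and some were lost without either of 2 tumors. Ccl28 and Cxcr6 without tumor 3 were lost because their means fell under 1 CPM. In addition 3 members were gained. Members with 1 tumor apart numbered 3, but 6 with no filter and 1 at a mean of at least 5 CPM, settings that change which genes are tested. Leaving out 1 tumor gave 32 to 35 detected members, a mean ligand sum of 5602 to 8332 CPM and a mean receptor sum of 107 to 127 CPM. Steps beyond the spread in the order per kilobase numbered 3 to 4 under the alternatives, and of the 12 members in that order 9 were among the top 12 by CPM not divided by length. Alternatives added after the data were seen were merged exon lengths, the order without each tumor and the members highest in tumor 3, which numbered 21 to 24. At these depths, members under 1 CPM could not be compared between tumors.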
